A study of Sus scrofa with 50 samples.

Results

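Transcription regulators of fat cell formation and fuel use were followed as 9 genes through 5 tissues of Korean minipigs: PPARG, PPARA, PPARD, CEBPA, CEBPB, PRGC1 (the Swiss-Prot name of PPARGC1A, or PGC-1 alpha), RXRA, RXRG and NR1H3. They were chosen by name, with earlier results of these data known. Every assembled transcript whose best protein match carried one of these names, with an E value of at most 1e-10, was taken, and the levels of transcripts with the same name were summed. This gave 9 entries of 14414 and 20 transcripts of 32156. The animals were 5 pigs of the ET type (S0235, S0242, S0276, S0309 and S0326) and 5 of the L type (S0349, S0355, S0377, S0384 and S0385), and each gave backfat, loin, tenderloin, lymph and brain. No treatment, genotype, age or sex is given in the sources used here, and ET and L are not spelled out there. RNA was sequenced from stranded mRNA libraries, and the deposited values are TPM, a length-normalised share of a library that keeps no read depth, so each comparison rests on the spread between animals.

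PPARG, PPARA and PPARD are nuclear receptors for fatty acids and their derivatives, and each binds DNA as a pair with a retinoid X receptor such as RXRA or RXRG. NR1H3, also called LXR alpha, is a sterol receptor with the same partners. In cultured mouse fat cell precursors, CEBPB comes on early and switches on PPARG and CEBPA, which then keep each other and the genes of the mature fat cell active. In muscle and liver, PPARA and PPARD switch on fatty acid oxidation, and PGC-1 alpha is the coactivator that couples them and other factors to mitochondrial gene expression.

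All means and tests left out 5 libraries: S0355 backfat, loin and brain and S0235 lymph and brain. Their overall profiles stood apart from those of the other libraries with their label. Their correlation with the other libraries of their labelled tissue was 0.592 to 0.785, against 0.902 to 0.990 for the 45 libraries kept, of which 44 matched their own tissue best. The exception, S0235 loin, matched tenderloin best (r = 0.980) and held PITX1 at 6.48 TPM, a gene at 0 in the other kept loin libraries. The reverse was seen in the kept L tenderloin library of S0349, although its profile matched tenderloin best. It held PITX1 at only 0.0597 TPM, against 6.999 to 25.4 TPM in the other tenderloin libraries. The reason for this low PITX1 level was not tested. The library labelled S0355 backfat matched loin best (r = 0.987) and the library labelled S0355 loin matched backfat best (r = 0.959). The library labelled S0235 lymph matched backfat best, but only at r = 0.723. It held the kidney tubule marker UMOD at 2156 TPM and the lymphocyte marker CD3E at 3.13 TPM. The kept lymph libraries held at most 4.61 TPM of UMOD, and 406 to 750 TPM of CD3E. The left-out brain libraries of S0235 and S0355 did match brain best, but only at r = 0.769 and 0.785. They held the myelin marker MBP at 30538 and 37999 TPM, against 16.0 to 80.1 TPM in the kept brain libraries. The kept groups were therefore 5 ET and 4 L libraries in backfat and in loin, 5 and 5 in tenderloin, 4 and 5 in lymph, and 4 and 4 in brain. The markers of the labelled tissue were present in backfat, loin, tenderloin and lymph. The kept brain libraries held 4 anterior pituitary markers at a summed 48011 to 83102 TPM in ET and 21126 to 52715 TPM in L, and 4 myelin and astrocyte markers at only 50.5 to 128 TPM in ET and 66.9 to 103 TPM in L, so "brain" is used here as a label only.

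The transcripts differed in how much of the protein they covered. PPARG was measured by a single transcript of 1906 bases that matched residues 1 to 504 of the pig protein at 100% identity, so its long and short isoforms were not separated. PPARA also had 1 transcript, which matched residues 1 to 388 of the dog protein. CEBPB had 3 transcripts, of which 1 took 99.1% of the TPM. CEBPA had 3, RXRA 2, PPARD 3, PRGC1 2, RXRG 2 and NR1H3 3. In the RefSeq annotation of Sscrofa11.1, PPARG lies at chr13:68301566-68433951, CEBPA at chr6:43083200-43085884, RXRA at chr1:273698842-273797622, RXRG at chr4:85158313-85357116 and PPARGC1A at chr8:17841844-18527953. The other 4 lie on chromosomes 5 (PPARA), 7 (PPARD), 17 (CEBPB) and 2 (NR1H3).

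The fat cell factors PPARG and CEBPA were highest in backfat. PPARG averaged 92.6 ± 67.4 TPM in backfat (SD, n = 9), against 1.73 ± 0.46 in lymph (n = 9), 1.49 ± 0.99 in tenderloin (n = 10), 0.589 ± 0.210 in loin (n = 9) and 0.189 ± 0.174 in brain (n = 8). The difference of backfat minus lymph, the next tissue, was 4.63 on the log2(TPM + 1) scale (SE 0.17, adjusted p = 5.81e-26, limma over the 45 libraries). CEBPA followed the same first steps, with 129 ± 123 TPM in backfat, 9.69 ± 3.12 in lymph and 4.12 ± 2.79 in brain, and was under 1.1 TPM in every kept loin and tenderloin library. Its backfat minus lymph difference was 2.72 (SE 0.26, adjusted p = 5.47e-12). CEBPB was spread more widely: loin (95.3 ± 47.3 TPM), tenderloin (88.4 ± 48.9) and backfat (86.4 ± 45.6) did not differ beyond their spread, backfat lay above lymph (17.0 ± 2.88), and lymph above brain (9.56 ± 5.55).

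The oxidative receptors were ordered differently. PPARA was highest in tenderloin, at 12.7 ± 7.17 TPM, above loin at 3.99 ± 1.64 TPM by 1.31 on the log2 scale (SE 0.27, adjusted p = 2.75e-04). Backfat held 2.16 ± 3.13 TPM of PPARA and lymph 0.258 ± 0.205. PPARD was more even: lymph (34.2 ± 7.41 TPM), backfat (29.5 ± 14.7) and brain (28.9 ± 7.73) did not differ beyond their spread, and backfat lay above loin (11.2 ± 4.45), with loin and tenderloin (9.03 ± 4.22) not differing beyond their spread. With the animal as a block, PPARD had a backfat minus lymph difference of -0.44 on the log2 scale (adjusted p = 0.0264). The coactivator PRGC1 was highest in tenderloin at 30.6 ± 27.6 TPM, then brain at 10.1 ± 3.07 and loin at 5.98 ± 2.40, and every kept backfat and lymph library held under 0.18 TPM. The tenderloin minus brain difference of PRGC1 was 1.08 (SE 0.25, adjusted p = 1.53e-04).

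The partner receptors split by tissue. RXRA was highest in loin (70.7 ± 28.4 TPM) and backfat (69.0 ± 36.9), which did not differ beyond their spread, then tenderloin (28.2 ± 7.29), brain (8.14 ± 3.19) and lymph (5.30 ± 2.82), with each of those steps called. RXRG was highest in brain (48.6 ± 28.3 TPM) and loin (41.6 ± 31.8), followed by tenderloin (20.5 ± 9.19) and backfat (9.28 ± 8.0), and no kept lymph library exceeded 0.09 TPM. The sterol receptor NR1H3 was above 8 TPM in every kept library of all 5 tissues, at 54.6 ± 17.3 TPM in backfat, 23.7 ± 5.83 in lymph, 16.9 ± 1.75 in brain, 16.3 ± 5.58 in loin and 11 ± 1.81 in tenderloin. The order of loin and backfat for RXRA and of brain and loin for RXRG depended on the processing, as given in the closing section. For 5 of the 9, the highest tissue was called above the next: PPARG, PPARA, CEBPA, PRGC1 and NR1H3. Such calls are frequent in these data. Of all 13447 entries, 28.1% were called higher in backfat than in lymph, 8.69% higher in tenderloin than in loin and 11.8% higher in tenderloin than in brain, the steps below the highest tissue of these 5 regulators. For the lower steps, backfat was called higher than loin for 55.2% and lower for 20%, and higher than tenderloin for 57.9% and lower for 17.5%. Loin was called higher than tenderloin for 14.5%, higher than brain for 12.2% and lower than brain for 74.0%, and lymph higher than brain for 21.2% and lower for 53.8%.

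**Figure D1:**
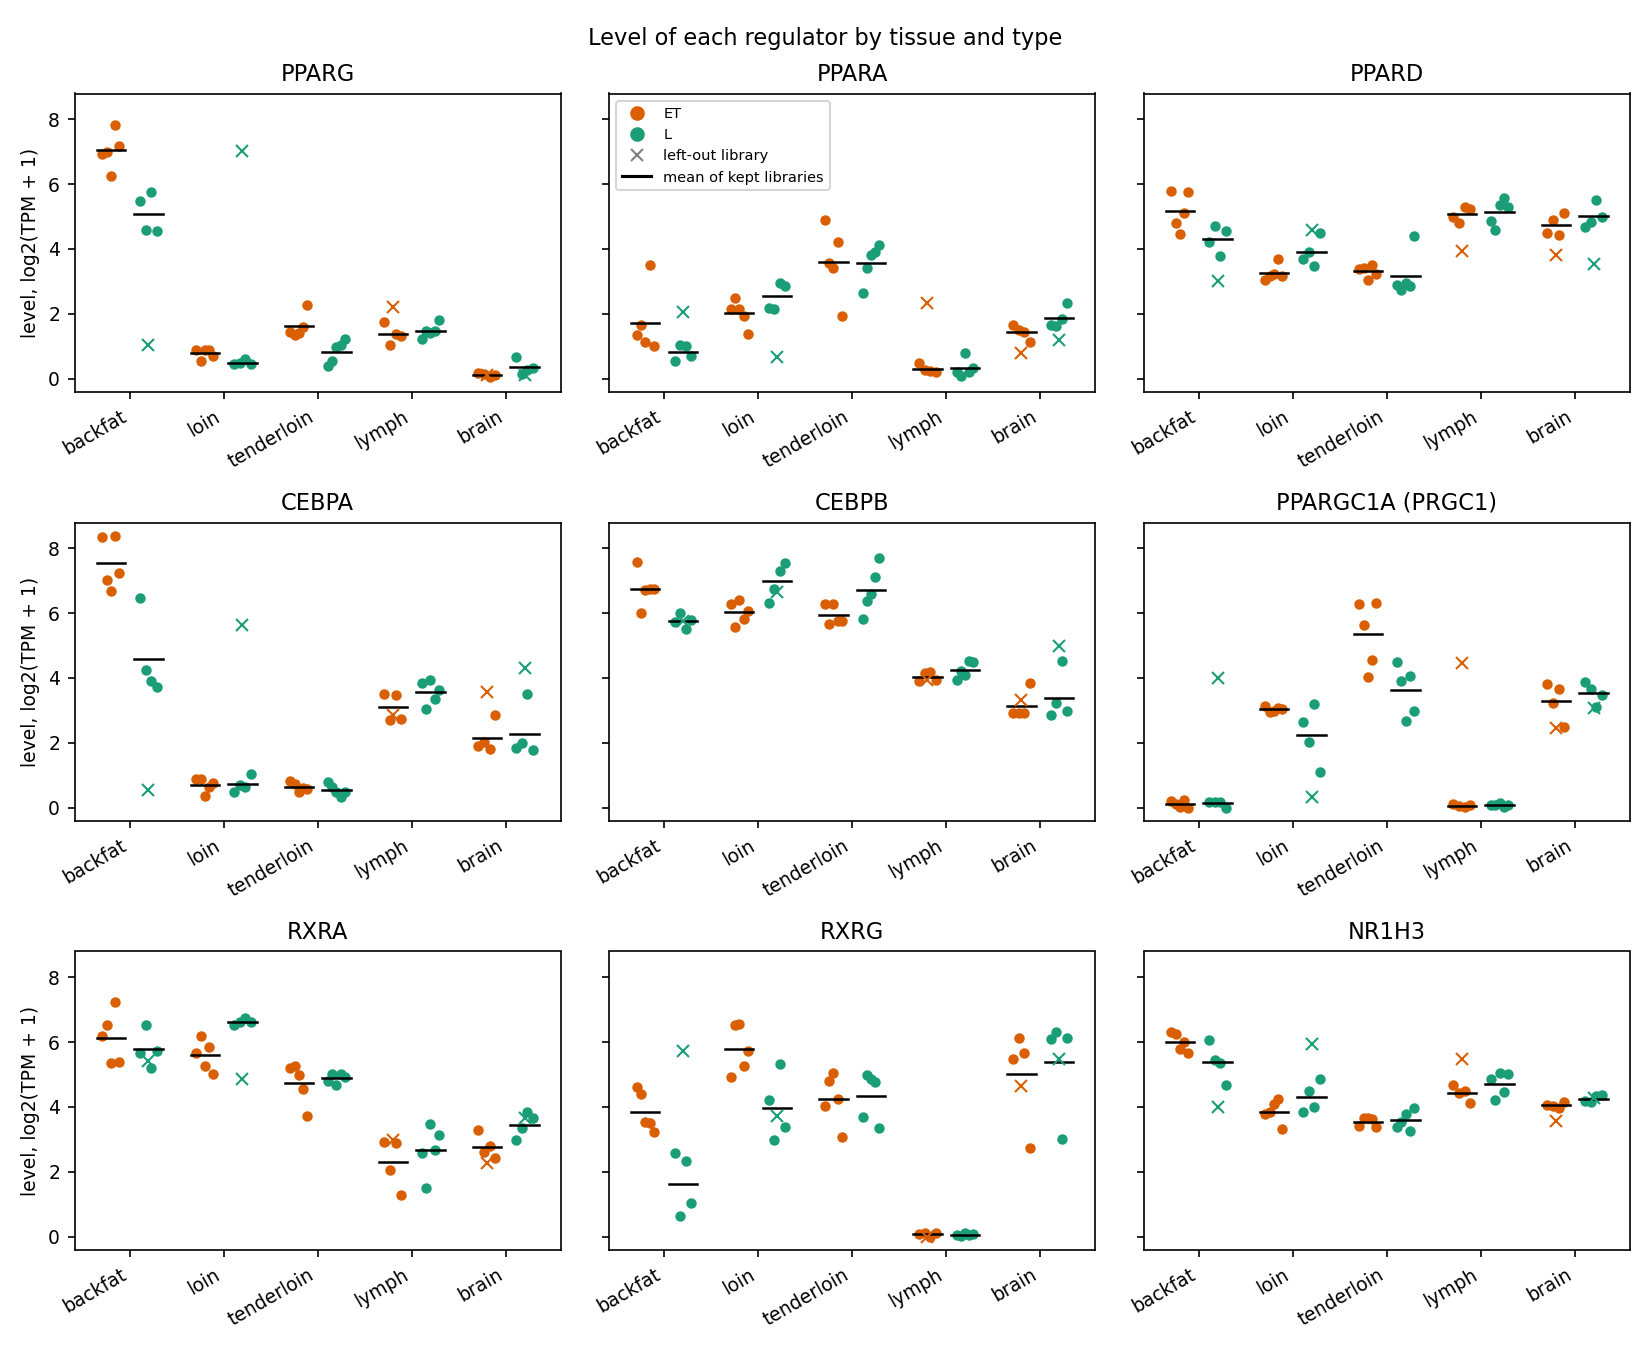
Level of each regulator as log2(TPM + 1) in each tissue, with ET libraries left of L libraries, bars at the mean of the kept libraries and crosses for the 5 libraries left out. PPARG and CEBPA stand high in backfat alone, PRGC1 lies near 0 in backfat and lymph, and the left-out S0355 loin library sits at 128.5 TPM of PPARG.

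In backfat, PPARG, CEBPA and RXRG were higher in ET than in L pigs. PPARG stood at 121, 127, 74.5, 226 and 144 TPM in the ET libraries (S0235 to S0326 in order of number), against 43.9, 22.8, 53.0 and 22.3 TPM in the L libraries (S0349, S0377, S0384 and S0385). The lowest ET library lay above the highest L library. The difference was 1.94 on the log2(TPM + 1) scale (SE 0.35, adjusted p = 0.0115, limma), with means of 138 ± 55.1 TPM in ET and 35.5 ± 15.4 TPM in L (SD, n = 5 and 4).

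CEBPA, which maintains the fat cell state together with PPARG, had the largest difference of the 8 regulators tested. It stood at 327, 127, 101, 330 and 149 TPM in ET, against 86.7, 17.9, 14.0 and 12.2 TPM in L. The groups did not overlap, although the L library of S0349 came close to the ET library of S0276. The log2 difference was 2.94 (SE 0.56, adjusted p = 0.0135). RXRG, a retinoid X receptor best known from muscle and brain, stood at 23.5, 20.1, 10.7, 10.3 and 8.42 TPM in ET, against 4.95, 0.547, 4.0 and 1.04 TPM in L. These groups did not overlap either, and the log2 difference was 2.22 (SE 0.46, adjusted p = 0.0169).

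The early factor CEBPB also lay higher in each ET library, at 189, 63.6, 103, 105 and 105 TPM, against 51.4, 62.5, 44.0 and 53.8 TPM in L, but its log2 difference of 1.01 (SE 0.29) missed the threshold with an adjusted p of 0.0516. PPARD averaged 37.6 ± 15 TPM in ET and 19.5 ± 5.58 TPM in L (log2 difference 0.87, adjusted p = 0.116), and NR1H3 63.9 ± 12.3 TPM in ET and 43.1 ± 16.6 TPM in L (0.62, adjusted p = 0.187). PPARA (3.26 ± 4.01 and 0.792 ± 0.291 TPM in ET and L) and RXRA (78.7 ± 45.3 and 56.9 ± 23.4 TPM in ET and L) overlapped widely, and PRGC1 was too low to be tested. The call of 3 members higher and 0 lower among 8 tested is read against 7.53% of all 12110 entries tested called higher and 1.04% called lower. The groups did not overlap, with ET above L, for 4 members, against 11.9% of all entries.

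All entries together were shifted upward in ET backfat, by a median of 0.29 on the log2 scale. With median-ratio scaling that shift was 0.01, and the split over all entries moved to 497 higher and 254 lower, against 912 higher and 126 lower without it. PPARG (1.64, adjusted p = 0.0222), CEBPA (2.64, adjusted p = 0.0245) and RXRG (1.99, adjusted p = 0.0366) were still called. They were called without each of the 9 libraries in turn as well, with adjusted p up to 0.0341 for PPARG, 0.0491 for CEBPA and 0.0458 for RXRG. When the left-out S0355 backfat library, whose profile matched loin best, was put back, only CEBPA was called (3.75, adjusted p = 0.0304). PPARG then had an adjusted p of 0.0596 and RXRG 0.343.

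Markers of several cell types were higher in ET backfat as well. The 6 adipocyte markers summed to 8067 to 18062 TPM in ET backfat and 479 to 7384 TPM in L, and 5 of the 6 were called higher, FABP4 being the exception (adjusted p = 0.186). LEP, the gene of leptin, averaged 106 TPM in ET and 0.0131 TPM in L. The 6 fibroblast markers summed to 7943 to 29837 TPM in ET and 1038 to 3855 TPM in L, with 4 of 6 called higher. Among macrophage markers 2 of 5 were called higher (144 to 450 TPM summed in ET and 52.9 to 132 TPM in L), among red cell markers 2 of 3 (95 to 647 and 2.92 to 67.5 TPM in ET and L), and of 3 lymphocyte markers tested 2 were higher and 1 lower. The macrophage count was 4 without S0242 and 1 without S0235, S0309, S0326, S0384 or S0385, and the red cell count was 1 without S0242, S0377 or S0384. No lymphocyte marker was called higher without S0326, S0377, S0384 or S0385. Endothelial and skeletal muscle markers gave no call. The 5 endothelial markers summed to 474 to 848 TPM in ET and 31.5 to 1415 TPM in L. The lowest of these sums was that of the L pig S0377, with VWF at 5.39 TPM and CDH5 at 1.92 TPM. That library also had the lowest adipocyte marker sum, 479 TPM. The part of these markers in the regulators' difference was not tested, and in bulk RNA fewer cells of a type and less RNA per cell cannot be told apart.

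Per 1000 TPM of adipocyte markers, the regulators overlapped between the types. Of these markers, FABP4, PLIN1, ADIPOQ and CIDEC are also on the list of PPARG targets used below. The ratios therefore cannot be read as levels per fat cell. PPARG came to 6.70 to 15.7 TPM in ET (median 11) and 5.95 to 47.6 TPM in L (median 10.2). CEBPA came to 11.4 to 22.9 TPM in ET (median 12.8) and 1.96 to 37.4 TPM in L (median 9.40), and RXRG to 0.647 to 2.02 TPM in ET (median 1.30) and 0.558 to 1.14 TPM in L (median 0.638). For the other regulators the median ratio was lower in ET: CEBPB had 8.07 TPM in ET and 19.1 TPM in L, PPARD 2.72 and 7.70, RXRA 4.98 and 18.4, NR1H3 4.41 and 11.6, and PPARA 0.147 and 0.254. For each of these regulators but RXRG, the highest ratio was that of the L pig S0377. S0377 and S0385 had the lowest marker sums, 479 and 1725 TPM. In the L pigs S0349 and S0384 the sums were 7384 and 7170 TPM. Their ratios were 6.96 and 6.14 for CEBPB (ET 6.40 to 12.7) and 2.37 and 1.76 for PPARD (ET 2.33 to 4.04). They were 6.77 and 4.95 for RXRA (ET 3.12 to 10.4), 8.82 and 5.61 for NR1H3 (ET 3.84 to 7.53) and 0.0627 and 0.141 for PPARA (ET 0.0779 to 0.722).

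**Figure D2:**
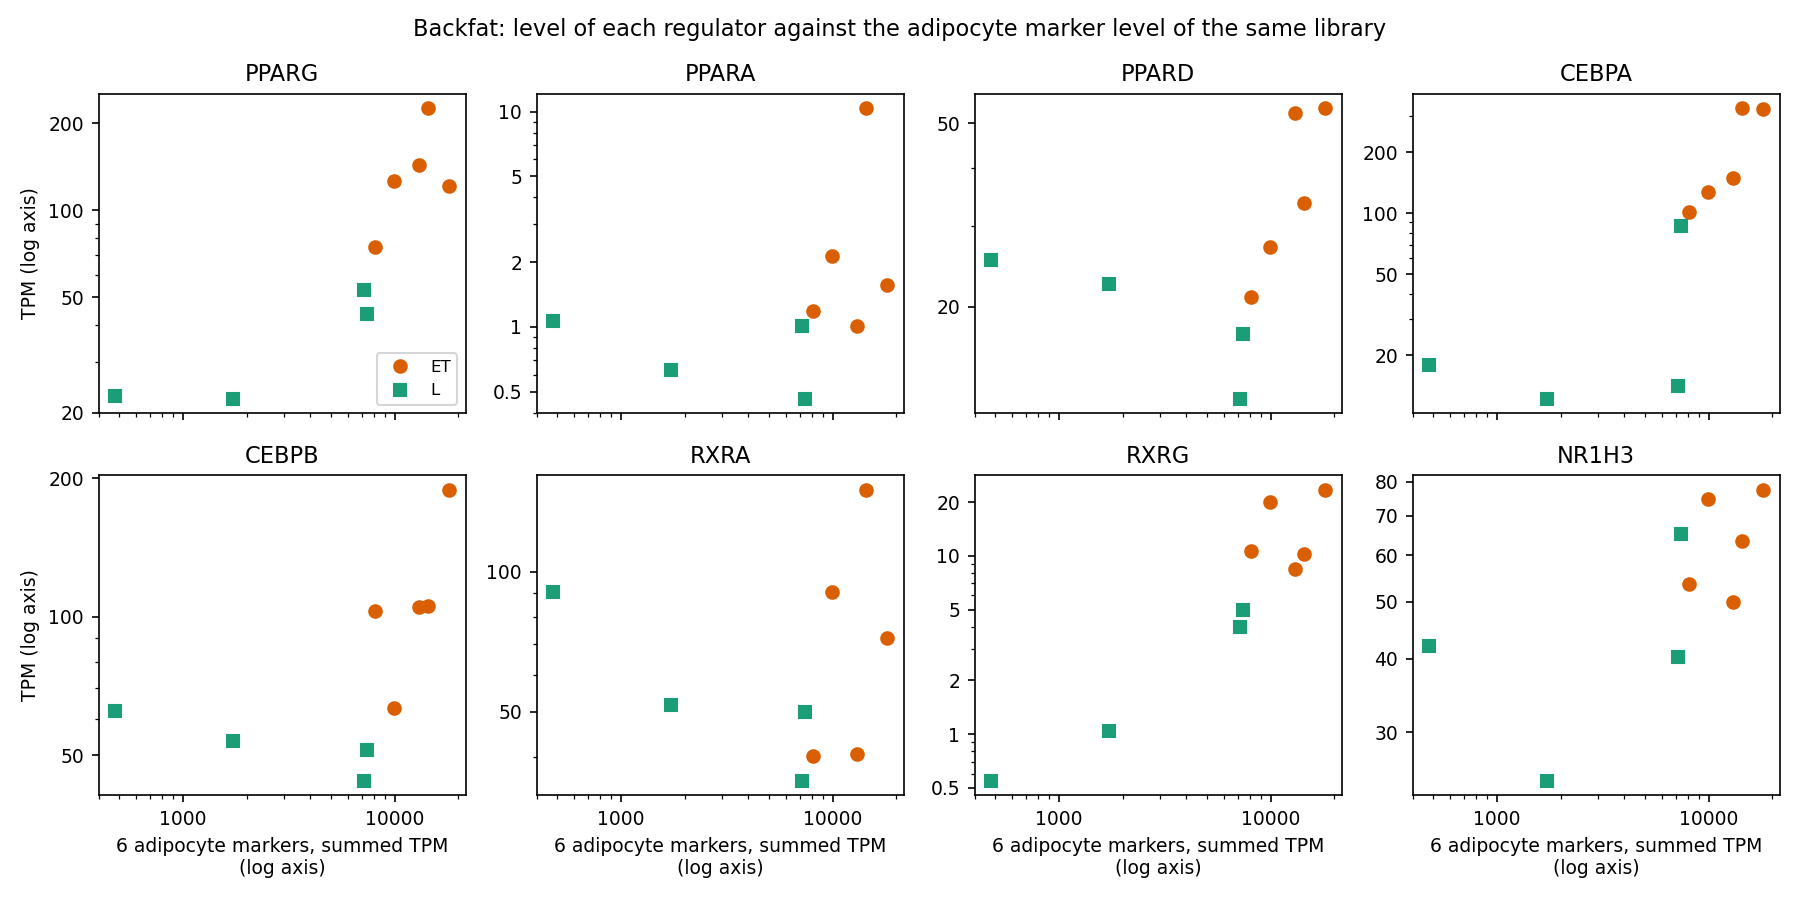
TPM of 8 regulators in each kept backfat library against the summed TPM of 6 adipocyte markers in the same library, both on log axes, with ET as circles and L as squares. ET libraries start at 8067 TPM of markers and L libraries end at 7384 TPM, and the L library of S0349, at 86.7 TPM of CEBPA, lies beside the lowest ET library.

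In loin, a fast back muscle, the regulators divided: RXRG was higher in ET than in L, and RXRA, CEBPB and PPARD were lower. RXRA stood at 49.4, 71.0, 37.0, 56.3 and 31.2 TPM in ET, against 91.9, 96.4, 107 and 96.4 TPM in L. Each ET library lay below each L library, which held for 21.6% of all entries, and the log2 difference was -1.04 (SE 0.22, adjusted p = 0.0066). RXRG stood at 29.6, 90.4, 93.0, 37.1 and 51.6 TPM in ET, against 17.6, 6.89, 38.7 and 9.47 TPM in L. Here the L library of S0384 overlapped the ET range, and the difference was 1.82 (SE 0.47, adjusted p = 0.0149). The 2 retinoid X receptors thus had differences of opposite sign in the same libraries.

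CEBPB stood at 77.4, 46.6, 84.3, 55.2 and 65.7 TPM in ET loin, against 78.8, 106, 157 and 187 TPM in L, with 1 L library inside the ET range. The difference was -0.95 (SE 0.26, adjusted p = 0.0185). PPARD stood at 7.19, 8.07, 8.38, 11.8 and 7.89 TPM in ET, against 11.9, 14.1, 10.2 and 21.4 TPM in L, a difference of -0.64 (SE 0.21, adjusted p = 0.0418). PRGC1 was tightly grouped in ET loin, at 6.81 to 7.85 TPM, and spread from 1.13 to 8.26 TPM in L (0.80, adjusted p = 0.0871). PPARA (-0.53) and NR1H3 (-0.44) were not called, and PPARG and CEBPA, under 1.1 TPM throughout, were not tested. A share of 6.17% of all entries was called higher in ET loin and 25.2% lower, so that lower calls are common there, and the median of all entries was -0.23.

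With median-ratio scaling, which brought that median to -0.04, RXRA (-0.82, adjusted p = 0.0187) and RXRG (2.03, adjusted p = 0.0184) were called, and CEBPB (-0.73, adjusted p = 0.0505) and PPARD (-0.43, adjusted p = 0.109) were not. The CEBPB call was also lost without S0385 (adjusted p = 0.0555). The PPARD call was lost when S0235, S0242, S0276, S0326, S0377 or S0385 was left out (adjusted p up to 0.101). Without S0235, whose loin library matched tenderloin best, RXRA, RXRG and CEBPB were called in the same directions. With the S0355 loin library put back, whose profile matched backfat best, only RXRG was called (1.87, adjusted p = 0.0446). All 6 fibroblast markers were higher in ET loin (161 to 930 TPM summed in ET and 125 to 231 TPM in L), as were 2 of 5 skeletal muscle markers, ACTA1 and TNNC2, and both red cell markers tested. With 1 animal left out in turn, 4 to 6 fibroblast and 1 to 2 skeletal muscle markers were called higher. Neither of the 2 adipocyte markers tested was called. The part of these markers in the regulators' differences was not tested.

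In tenderloin, an inner loin muscle, no regulator passed the threshold among 8 tested (3 had an unadjusted p under 0.05), against 1.4% of all entries called higher and 0.23% lower. PPARG stood at 1.71, 1.56, 1.65, 2.04 and 3.82 TPM in ET, against 0.303, 0.457, 0.974, 1.04 and 1.32 TPM in L. Each ET library lay above each L library, which held for 3.85% of all entries, and the difference was 0.79 (SE 0.22, adjusted p = 0.0865). PRGC1 stood at 77.2, 48.8, 15.2, 22.3 and 78.3 TPM in ET, against 21.5, 13.8, 5.43, 15.9 and 6.97 TPM in L. The ET library of S0276 lay below the L libraries of S0349 and S0384, and the difference of 1.73 (SE 0.48) had an adjusted p of 0.0861. CEBPB had the same sign as in loin, at 61.8 ± 13.9 TPM in ET and 115 ± 58.4 TPM in L (-0.77, adjusted p = 0.189). PPARA, PPARD, RXRA, RXRG and NR1H3 had differences between -0.14 and 0.16. The adipocyte markers summed to 29.4 to 76.9 TPM in ET tenderloin and 9.59 to 87.7 TPM in L, and 4 of 6 fibroblast markers were called higher in ET. That fibroblast count was 3 without S0242 or S0326 and 1 without S0377.

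In lymph and brain, no member and no other entry was called by limma (0.0% of 11982 and of 13097 entries), although 525 and 1080 entries had an unadjusted p under 0.05. All 6 members tested in lymph had differences between -0.45 (CEBPA) and -0.05 (PPARD). In brain, RXRA averaged 6.02 ± 1.94 TPM in ET and 10.3 ± 2.82 TPM in L (-0.68, unadjusted p = 0.0306, adjusted p = 0.585). NR1H3 lay lower in each ET brain library (14.7 to 16.6 TPM) than in each L library (16.8 to 19.6 TPM), a pattern shared by 6.59% of all entries, with a difference of -0.21 (adjusted p = 0.706). RXRG was uneven there: S0326 held 5.68 TPM in ET and S0384 7.03 TPM in L, against 43.6 to 78.3 TPM in the other 6 brain libraries. The same 2 libraries had the highest CEBPA (6.26 and 10.3 TPM) and CEBPB (13.4 and 22 TPM) of the kept brain libraries. They also stood apart in pituitary hormone transcripts: PRL (prolactin) was at 1331 TPM in S0326 and 805 TPM in S0384, against 10310 TPM or more in the other 6, and CGA at 3690 and 2085 TPM, against 5389 TPM or more. The part of these markers in the RXRG, CEBPA and CEBPB values was not tested.

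**Figure D3:**
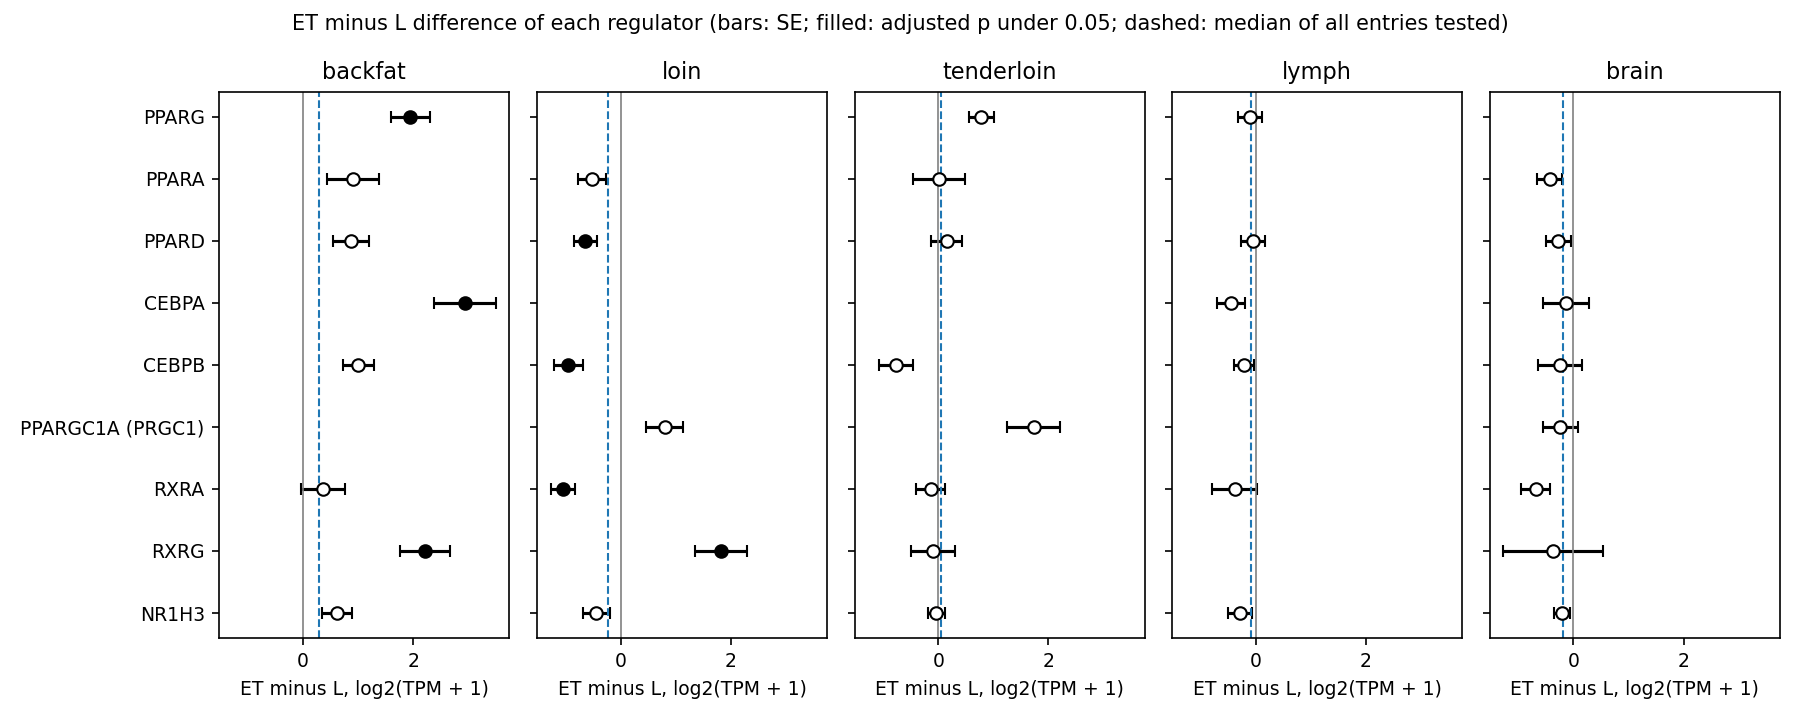
ET minus L difference of each regulator in each tissue on the log2(TPM + 1) scale, with SE bars, filled points for adjusted p under 0.05 and a dashed line at the median of all entries tested. PPARG, CEBPA and RXRG are filled in backfat, RXRG, RXRA, CEBPB and PPARD in loin, and members under 1 TPM have no point.

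The ET minus L difference depended on the tissue for 6 of the 9 regulators by an F test over all 5 tissues: PPARG (adjusted p = 3.28e-05), CEBPA (3.19e-05), CEBPB (0.00539), PRGC1 (0.0104), RXRG (0.0282) and PPARD (0.0370). Of all 13447 entries, 21.7% were called. NR1H3 (0.0575) and RXRA (0.2) missed the threshold, but passed it with the animal as a block (0.0389 and 0.0455). CEBPB had a positive difference in backfat and negative ones in both muscles, and its backfat difference exceeded that in loin by 1.96 (SE 0.43, adjusted p = 8.91e-04) and that in tenderloin by 1.78 (SE 0.42, adjusted p = 0.00352). Of all entries, 10.4% were called with a larger difference in backfat than in tenderloin and 2.25% with a smaller one. CEBPA differed between backfat and loin by 2.96 and between backfat and tenderloin by 2.85, and PPARG by 1.66 and 1.16. PRGC1 went the other way, with a backfat difference lower than the tenderloin difference by 1.75 (adjusted p = 0.0135), but it was near 0 TPM in backfat of both types. With 1 animal left out in turn, the backfat minus tenderloin call was lost in 2 of 10 fits for PRGC1 and 3 for PPARG. Between backfat and loin, 7 of 9 were called, all with the larger difference in backfat, against 24.3% of all entries in that direction. The median of all entries in that contrast was 0.45. With 1 animal left out in turn, these calls were lost in 7 of 10 fits for PPARA, 5 for RXRA and 1 for NR1H3. No regulator's difference was called between loin and tenderloin (0.721% of all entries called), RXRG having the largest value, 1.91 (SE 0.79, adjusted p = 0.266).

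Genes linked to these regulators were counted from 7 lists by pathway. Some lists hold known targets, and the others hold partners, coregulators, family members or other regulators of fat cell formation. Of 24 PPARG targets in fat cells, 18 were called higher in ET backfat and 0 lower, where 7.53% of all entries were called higher and 1.04% lower, with a median difference of 2.90 against 0.29 over all entries. They included the droplet lipase gene LIPE (870 ± 304 TPM in ET and 53.8 ± 63.3 TPM in L), the droplet coat gene PLIN1 (816 ± 285 and 55.9 ± 50.3 TPM in ET and L) and TUSC5, a trafficking partner of the glucose transporter (679 ± 303 and 35.2 ± 43.2 TPM in ET and L). Their log2 differences were 4.54, 4.20 and 4.83. FABP4, PLIN1, ADIPOQ and CIDEC are also among the adipocyte markers, so those counts are not independent. All 7 lists were chosen with earlier results of these data known, so their counts are a description and not an independent test. Without S0384 the count was 11, and with the S0355 library put back it was 13.

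Of 20 fatty acid oxidation targets of PPARA and PPARD tested in backfat, 10 were higher in ET, against the same 7.53% of all entries, with a median of 1.25. They included the mitochondrial carrier gene UCP3 (197 ± 95.9 TPM in ET and 31.4 ± 52.7 TPM in L), SLC25A20, which carries acylcarnitines into mitochondria (66.2 ± 20 and 21.5 ± 10.4 TPM in ET and L), and the thiolase gene ACAA2 (118 ± 41.3 and 35.8 ± 15.7 TPM in ET and L). This count was unsteady: it was 5 with median-ratio scaling, 4 without S0235, 5 without S0377, 6 without S0385, and 2 without either S0326 or S0384. It was also 2 with the S0355 library put back, but the profile of that library matched loin best. Of 11 LXR targets, 3 were higher: SCD, the fatty acid desaturase (log2 difference 6.40; 2.26 ± 2.23 TPM in L), MLXIPL, the carbohydrate response factor (3.66), and SMPDL3A (1.76). In ET, SCD averaged 782 TPM with an SD of 1298. With 1 animal left out, 2 to 5 LXR targets were called higher, 5 of them without S0276 or S0349, and 1 was lower without S0309.

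The counts of the other 4 lists in backfat are likewise set against 7.53% of all entries called higher and 1.04% lower. Among 16 nuclear receptor coregulators and 11 other RXR partners and family members tested, 0 were called. LPIN1, a coactivator and lipid phosphatase, came nearest (2.16, adjusted p = 0.0558). Of 12 PGC-1 partners and targets 1 was higher, the cytochrome c gene CYCS (107 ± 37.9 TPM in ET and 52.2 ± 5.46 TPM in L), a call that was not made with median-ratio scaling. Without S0276 there were 3 such calls, and without any animal other than S0235 or S0276 there were 0. Of 22 other adipogenic regulators 0 were higher and 1 was lower: CEBPD, which acts beside CEBPB in early fat cell formation, averaged 96.4 ± 23.7 TPM in ET and 258 ± 114 TPM in L (-1.30, adjusted p = 0.0409). That call was lost without S0235, S0326, S0377, S0384 or S0385, and with the S0355 library put back.

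In ET loin, several of the same lists held lower members, against the 25.2% of all entries called lower there. Of 15 coregulators 7 were lower and 0 higher (median -0.55), among them LPIN1 (71.6 ± 12.6 TPM in ET and 294 ± 213 TPM in L), the corepressor NCOR1 (21.0 ± 3.18 and 40.5 ± 12.4 TPM in ET and L) and the coactivator NCOA1 (6.0 ± 1.99 and 12.4 ± 1.28 TPM in ET and L). Of 11 RXR partners and family members 4 were lower and 1, the retinoic acid receptor gene RARG, was higher; the lower ones included the remaining retinoid X receptor RXRB (15.9 ± 1.01 TPM in ET and 32.4 ± 5.63 TPM in L, -0.97, adjusted p = 0.00213) and the second liver X receptor NR1H2 (34.5 ± 5.23 and 59.6 ± 11 TPM in ET and L). Of 14 PGC-1 partners and targets 4 were lower, including the mitochondrial DNA factors TFAM (24.1 ± 3.66 and 39.0 ± 4.03 TPM in ET and L) and TFB1M, and 1 was higher, CYCS. With median-ratio scaling 4 coregulators and 2 RXR partners were lower, and with the S0355 library put back 1 and 2. Without S0377 or S0385, 4 coregulators were lower. Without S0377, 2 PGC-1 partners were lower, and without S0276, S0309, S0326 or S0377, 2 RXR partners were.

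Of 21 other adipogenic regulators in loin, 6 were called lower and 3 higher, against 25.2% of all entries called lower and 6.17% higher. KLF9, a Kruppel-like factor, stood at 21.9 ± 9.11 TPM in ET and 106 ± 50.8 TPM in L (-2.21, adjusted p = 0.00224), and CEBPD at 22.9 ± 9.93 and 139 ± 119 TPM in ET and L (-2.21). ID1 and ID3, inhibitors of helix-loop-helix factors, and EBF2, a factor of brown fat precursors in mice, were higher (1.61, 0.69 and 0.98). Among 19 PPARG targets in loin, 3 were lower, a smaller share than that of all entries, led by the lipase gene PNPLA2 (87.0 ± 22.1 TPM in ET and 260 ± 58.7 TPM in L), and 2 higher, CFD and AQP7. The oxidation targets had 1 lower, PDK4, which restrains glucose oxidation (278 ± 197 TPM in ET and 1016 ± 575 TPM in L), and 1 higher, UCP3. With any 1 animal left out, 19 of them were tested, so the share called lower was smaller than that of all entries. Of 8 LXR targets 2 were lower (SMPDL3A and PLTP) and 1 higher (LPCAT3). Without S0309, S0326 or S0385 no LXR target was called lower, and without S0235, S0242, S0276, S0349 or S0377 only 1 was. No LXR target was called higher without S0377. With median-ratio scaling no oxidation target and no LXR target was called lower, and without S0309, S0377 or S0385 no oxidation target was called in either direction.

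Tenderloin shared some of these calls, where 1.4% of all entries were called higher and 0.23% lower. With any 1 animal left out, 20 PPARG targets, 20 oxidation targets, 22 adipogenic regulators and 11 RXR partners were tested there. CEBPD (-1.43, adjusted p = 0.0318) and PNPLA2 (-1.51, adjusted p = 0.0173) were lower in ET, and so was the mitochondrial acyl-CoA dehydrogenase gene ACADVL (-0.96, adjusted p = 0.0339). ID1 (1.85), ID3 (1.18), EBF2 (0.88) and the retinoic acid receptor gene RARG (0.90) were higher in ET. Without S0377 none of ID1, ID3, EBF2, CEBPD and RARG was called. No adipogenic regulator was called lower when any of 8 of the 10 animals was left out, no oxidation target for 7 of the 10, and no PPARG target without S0326 or S0377. No coregulator, LXR target or PGC-1 partner was called there, and no gene of the 7 lists was called in lymph or brain.

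**Figure D4:**
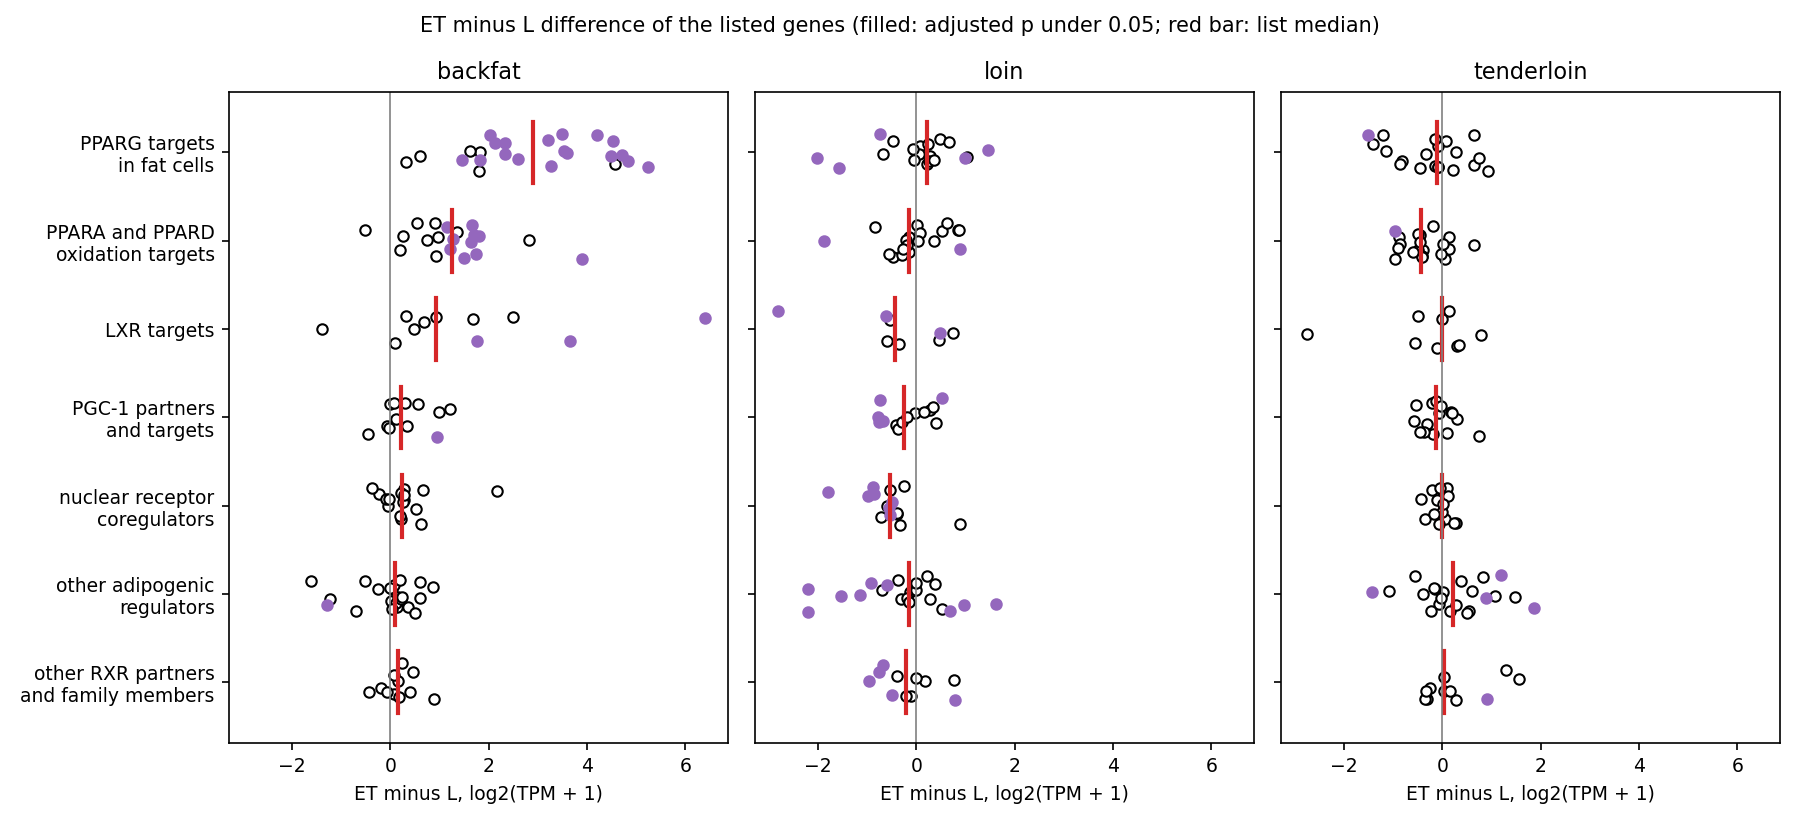
ET minus L differences, on the log2(TPM + 1) scale, of the genes of 7 lists in backfat, loin and tenderloin, with called genes filled and a red bar at each list's median. The medians of PPARG targets and of oxidation targets lie at 2.90 and 1.25 in backfat, and those of the other 5 lists there at 0.94 or less.

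For some members, the division of an entry's TPM between its transcripts differed between animals of the same type. The longer RXRA transcript (5007 bases, matching residues 10 to 467 of the mouse protein) took 7.55% to 8.05% of RXRA in the 3 kept libraries of the ET pig S0235 (2.95% and 12.4% in its left-out lymph and brain libraries), 76.6% to 100% in the 5 libraries of the ET pig S0309, and 83.4% to 95.3% in those of the L pig S0385. The other RXRA transcript (1893 bases) matched residues 1 to 467, and the sum of the 2 was used above. In loin the shorter transcript stood at 45.5, 55.6, 30.7, 6.26 and 22.8 TPM in ET, against 58.2, 61.8, 65.3 and 16.0 TPM in L, so that it overlapped between the types where the sum did not.

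CEBPA was also divided differently between animals. Its second transcript (3741 bases, with the same match to the whole protein as the first) took 18.5% and 30% of CEBPA in backfat of the ET pigs S0235 and S0242, at most 0.403% in backfat of the ET pigs S0276, S0309 and S0326, and 10.6% to 26.9% in the 4 L pigs. For PPARD, the transcript that matched only residues 360 to 441, the end of the protein, took 48.2% to 68.5% in the 5 libraries of the ET pig S0326 and 1.34% to 6.88% in the 3 kept ones of the ET pig S0235. PRGC1 was steadier: the transcript covering the whole protein took 44.6% to 70.6% in loin and 48.4% to 63.6% in tenderloin, the rest falling to one that began at residue 267. The transcripts of each of these entries matched overlapping parts of the protein, and whether reads were shared between them cannot be told from TPM.

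**Figure D5:**
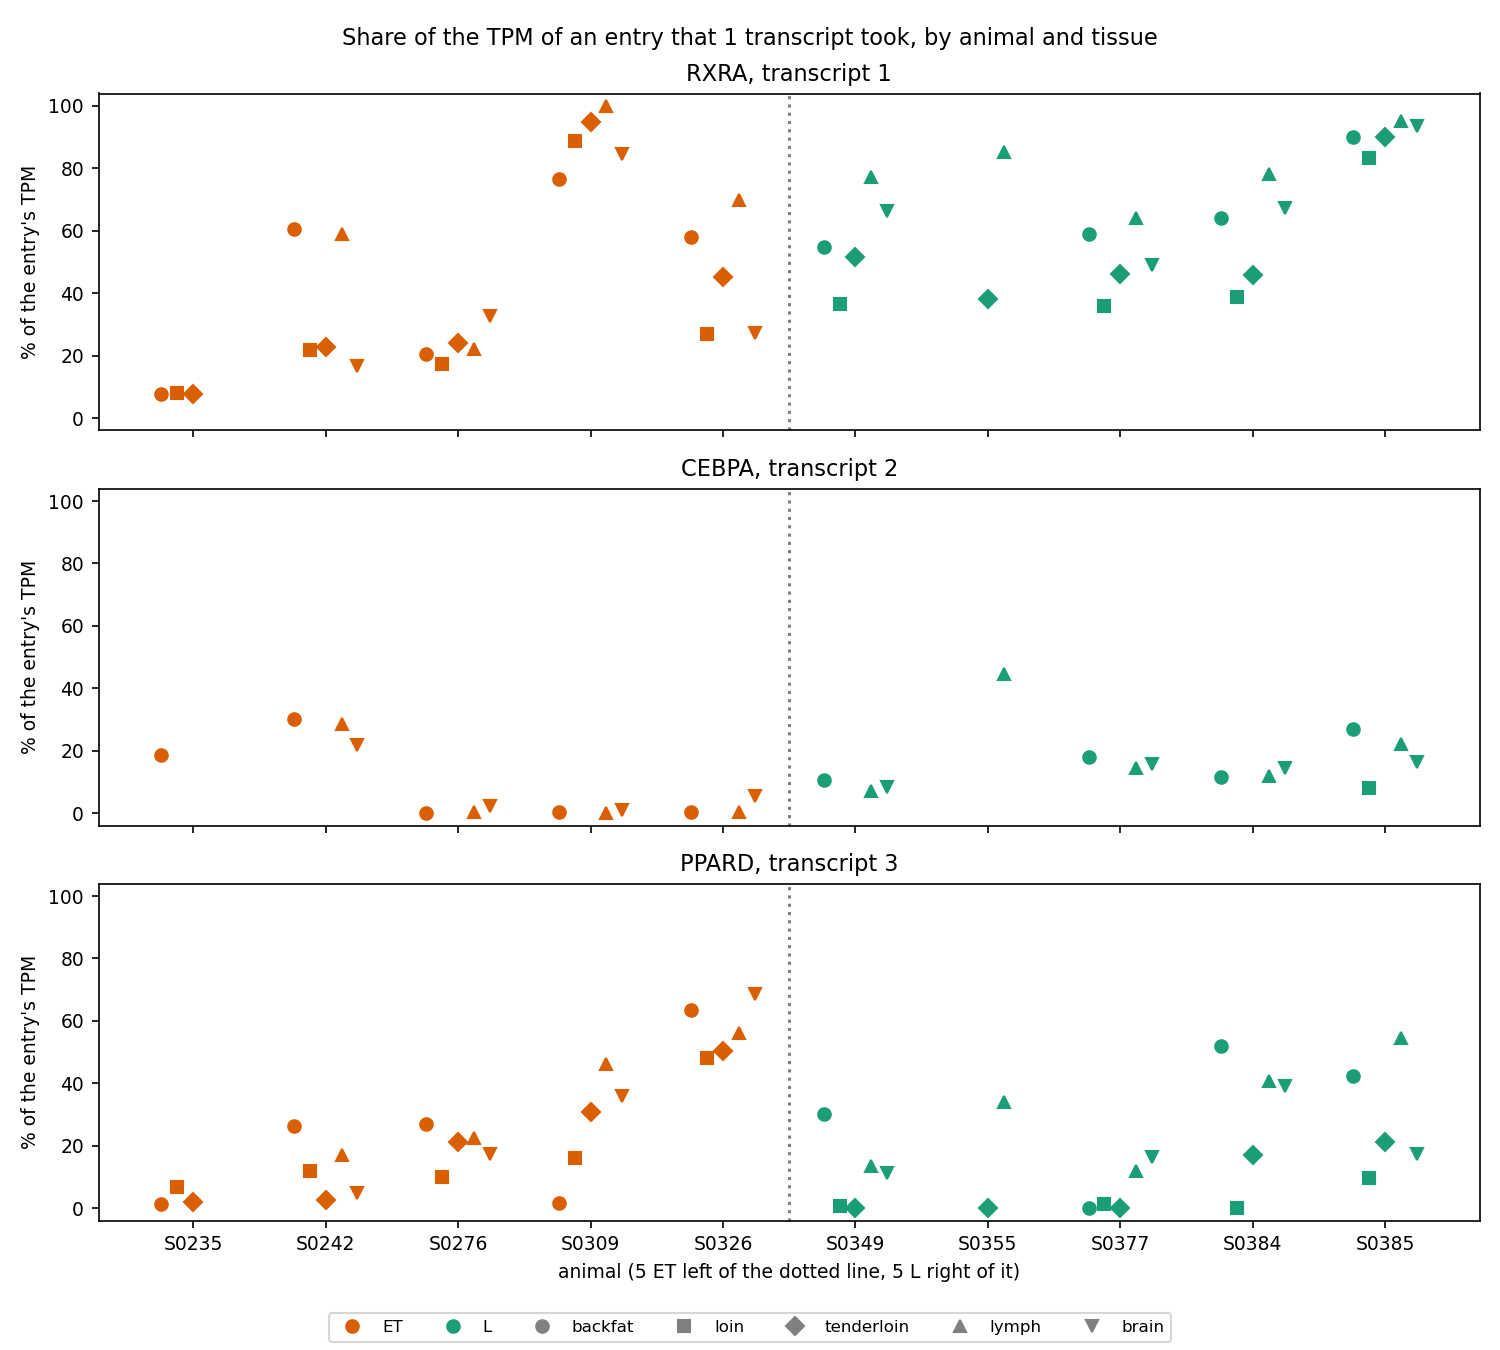
Percent of an entry's TPM taken by RXRA transcript 1 (5007 bases), CEBPA transcript 2 (3741 bases) and PPARD transcript 3 (residues 360 to 441), by animal, with ET animals left of L animals and a symbol for each tissue. Only kept libraries with at least 1 TPM of the entry are drawn, and the RXRA share lies near 8% in the 3 kept libraries of S0235 and above 76% in the 5 of S0309.

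Across the 45 libraries, the entries most like each regulator were described by Pearson's r of log2(TPM + 1) among 13447 entries. These r values mix tissue, type and animal and share libraries. For PPARG they were ADIPO (adiponectin, 0.967), ADIG (adipogenin, 0.964) and CIDEA (0.960), all of them fat cell genes. For CEBPA they were LAYN (0.968), CAH5B (0.960) and CHSTD (0.951), and for NR1H3 they were NADK (0.925), CANT1 (0.920) and CEBPA itself (0.917). CEBPB was nearest to the muscle genes SGCA (0.919) and MSTN1 (0.912) and to HXA7 (0.918), PPARA to AKAP1 (0.891), S20A2 (0.876) and BAG3 (0.872), and RXRA to TENS1 (0.938), KIF1C (0.910) and RHG10 (0.904). For PRGC1 they were CNKR2 (0.923), HS3S5 (0.912) and P2RY2 (0.907), for RXRG they were LIMC1 (0.918) and TTLL7 (0.906), and for PPARD they were MED15 (0.910), S2538 (0.907) and TCFL5 (0.907). Among the members themselves the closest pair was CEBPA with NR1H3, and PPARG with CEBPA had an r of 0.850.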

How the data were processed

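The authors deposited TPM for 57085 assembled transcripts in 50 libraries, with an annotation table. The submitters' processing notes list Trimmomatic 0.36, Salmon 1.10.0 and the build Sscrofa11.1 without their roles. Each deposited TPM column sums to 1000000, so depth is unknown. Transcripts with a best Swiss-Prot hit at an E value of at most 1e-10 were summed per entry, leaving out 2445 repeat or retroviral hits and 19 from outside animals. Tests used limma 3.58.1 (R 4.3.3) on log2(TPM + 1), which understates changes of low entries, with an intensity trend; tests were two-sided, and p-values were adjusted by the Benjamini-Hochberg method over every entry whose TPM averaged 1 or more in that fit. A call is an adjusted p under 0.05. Tissue and interaction tests used 10 group means over 45 libraries. Animal numbers pair libraries across tissues by the labels: deviations from group means correlated with a median r of 0.152 within animals (84 pairs) and -0.018 between animals (725 pairs). List genes named are those with the smallest p, at most 4 per list, tissue and direction; some are not reported here. The members and lists were chosen with earlier results of these data known. The fits were tested on simulated data.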

Additional observations from a re-analysis of the deposited data

Results flagged for a closer look

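A Dixon test set 1 library apart from the rest of its group in 10 of 72 groups tested. Chance gives about 1 in 20 groups. In muscle and fat these were PPARG in ET tenderloin (S0326, 3.82 TPM), PPARA in ET backfat (S0309, 10.4 TPM), PPARD in ET loin (S0309, 11.8 TPM), PPARD in L tenderloin (S0385, 20.1 TPM) and CEBPA in L backfat (S0349, 86.7 TPM). In brain they were CEBPA in ET (S0326, 6.26 TPM) and in L (S0384, 10.3 TPM), CEBPB in ET (S0326, 13.4 TPM) and in L (S0384, 22 TPM), and RXRG in L (S0384, 7.03 TPM).

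The ET minus L difference was called different between 2 tissues in 12 of 27 contrasts. Of all entries, 10.4% were called higher and 2.25% lower for backfat minus tenderloin, 24.3% higher for backfat minus loin, and 0.721% either way for loin minus tenderloin. Backfat minus tenderloin gave 2.85 for CEBPA, 1.78 for CEBPB, 1.16 for PPARG, 2.31 for RXRG and -1.75 for PRGC1, on the log2 scale. With 1 animal left out in turn, these calls were lost in 7 of 10 fits for RXRG, 3 for PPARG and 2 for PRGC1. Backfat minus loin gave 2.96 for CEBPA, 1.96 for CEBPB, 1.66 for PPARG, 1.5 for PPARD, 1.43 for PPARA, 1.40 for RXRA and 1.05 for NR1H3. Here the calls were lost in 7 of 10 such fits for PPARA, 5 for RXRA and 1 for NR1H3.

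The left-out libraries held 7 member levels more than 2-fold above every kept library of their labelled tissue. In S0355 loin these were PPARG at 128.5 TPM (highest kept loin library 0.862), CEBPA at 48.3 TPM (1.05) and NR1H3 at 60.8 TPM (27.9). In S0355 backfat they were PRGC1 at 14.9 TPM (0.176) and RXRG at 51.3 TPM (23.5). In S0235 lymph they were PRGC1 at 21.1 TPM (0.114) and PPARA at 4.02 TPM (0.744). The profiles of S0355 loin, S0355 backfat and S0235 lymph each matched another tissue better than the labelled one, so these levels do not describe the labelled tissues.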

How the results depend on the processing

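Leaving out each animal in turn moved the counts over all entries. Backfat gave 289 to 1227 entries higher (912 with all kept libraries) and 22 to 154 lower (126), loin 319 to 763 higher (652) and 1594 to 2754 lower (2665), tenderloin 5 to 321 higher (152) and 0 to 53 lower (25), and lymph 0 to 1 higher. Members called in loin came to 1 to 2 higher and 1 to 3 lower, members called by the F test to 3 to 7 and all entries so called to 1582 to 3132. Differences that changed sign had these ranges: in tenderloin PPARA -0.30 to 0.44, RXRA -0.27 to 0.12, RXRG -0.33 to 0.20 and NR1H3 -0.12 to 0.060; in lymph PPARG -0.23 to 0.0015 and PPARD -0.18 to 0.062; in brain CEBPA -0.36 to 0.28, CEBPB -0.48 to 0.13, PRGC1 -0.40 to 0.030 and RXRG -1.16 to 0.38. So did loin minus tenderloin for CEBPA (-0.25 to 0.0084), backfat minus loin for RXRG (-0.0036 to 0.67) and the RXRG level of brain minus loin (-0.013 to 0.93).

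With median-ratio scaling, entries called were 497 higher and 254 lower in backfat, 1107 and 1451 in loin and 73 higher in tenderloin, and 1 member was lower in loin. Signs turned for PPARA in tenderloin (-0.074), PPARD in lymph (0.050), CEBPA in brain (0.029), loin minus tenderloin for CEBPA (0.024) and CEBPB (0.17), backfat minus loin for RXRG (-0.16) and the RXRG level of brain minus loin (-1.09, adjusted p = 0.0149). With all libraries kept, backfat had 572 entries higher and 1 lower and 1 member higher, loin 61 and 660 with 0 members lower, and the F test called 2 members and 1003 entries. Signs turned for PPARG in lymph (0.063) and backfat minus loin for RXRG (-0.47).

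With 1 transcript per entry, 561 entries were higher in backfat, and 35 higher and 4 lower in tenderloin. RXRA in backfat (-0.54), PPARD (-0.027) and NR1H3 (0.042) in tenderloin, CEBPA in brain (0.14) and the RXRA level of loin minus backfat (-0.34) turned. An E value of at most 1e-50 gave 97 entries higher in tenderloin, with PPARD (-0.072) and NR1H3 (0.0046) turned there, and called NR1H3 in backfat (0.88, adjusted p = 0.0481). A pseudocount of 0.1 turned PPARA in tenderloin (-0.011). No filter gave 2 members higher in loin, and 1 entry higher and 1 lower in lymph. The cause of these changes was not tested.

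The replicate block, with the animal as a block in the fit over all tissues, called 8 members by the F test instead of 6, NR1H3 and RXRA being added, and PPARD in backfat minus lymph (-0.44); it changed no other call of the members. No paired analysis was possible within a tissue because ET and L pigs are different animals. TPM keeps no depth, so whether a low level reflects few reads cannot be told.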
